A study of Mus musculus with 8 samples.

Results

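Keratins are the intermediate filament proteins of epithelial cells. A keratin filament is built from pairs of 1 acidic type I and 1 basic or neutral type II keratin, so that a cell usually makes matched partners, such as KRT5 with KRT14 in the basal layer of the epidermis, KRT1 with KRT10 above it and KRT8 with KRT18 in simple epithelia. In brain the filaments of neurons and glia are neurofilaments, GFAP and vimentin, and keratins are known mainly from the epithelium of the choroid plexus and from tissue at the brain surface. The keratin genes examined here were all genes on the array whose symbol is Krt followed by a number alone. They comprised 43 probe sets of 36 genes among 22626 tested probe sets: 20 probe sets of 18 type II genes and 23 probe sets of 18 type I genes. A letter in the symbol (Krt6a, Krt6b, Krt33a, Krt33b) or a listing under several symbols kept 7 further probe sets out.

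RNA was taken from the brains of male C57/B6 mice at 3 months of age. In one group SIRT1, a deacetylase that uses NAD, had been deleted in brain (BSKO, 4 samples), and the controls were wild-type littermates (WT, 4 samples), each sample on its own single-channel Affymetrix Mouse430A_2 array. What drove the deletion is not given in the sources used here, nor is a treatment. The deposited values are log2 values set around 0 for each probe set, so they compare arrays with each other but hold no expression level, and neither the presence of a keratin nor the brain identity of a sample can be read from them. Sirt1 itself (probe set 1418640_at) lay between -0.0041 and 0.29 on the WT arrays and at 0.076, -1.46, -0.20 and -0.059 on BSKO 1 to 4, a difference of -0.50 (SE 0.31, limma adjusted p = 0.549), or of -0.15 without BSKO 2. The sources do not say whether this probe set covers the deleted part. BSKO 2 stood apart from the other arrays: its values had an SD of 0.831 over all tested probe sets against 0.150 to 0.314 on the other 7, and the beta-actin control gave a 5' minus 3' difference of -2.44, against -0.104 to 0.489. The main comparisons are therefore given with 8 arrays and without BSKO 2.

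Krt2 and Krt80 were chosen on their BSKO minus WT difference in earlier results of these data, so their values are a description and carry no test here. The other keratins entered by name and are read from a limma fit on all probe sets, adjusted by the method of Benjamini and Hochberg, at a threshold of 0.05. Of the 41 keratin probe sets other than Krt2 and Krt80, 0 passed with 8 arrays (3 had an unadjusted p under 0.05 by limma), against 0.0309% of all probe sets (0.00884% higher and 0.0221% lower). Without BSKO 2 there was 1, Krt27 on the higher side, against 1.63% of all probe sets (0.495% higher and 1.14% lower).

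The stretch of 250 bases before the RefSeq transcription start is shown for 5 members (mouse build GRCm38.p6, 5′ to 3′ on the strand of the gene). Krt2, Krt23 and Krt27 are shown because their values did not overlap between the genotypes, and Krt8 and Krt18 because they moved together from array to array. Capitals mark the letters TATAA, the core of a TATA box.
Krt2, chr15:101818170-101818419, minus strand: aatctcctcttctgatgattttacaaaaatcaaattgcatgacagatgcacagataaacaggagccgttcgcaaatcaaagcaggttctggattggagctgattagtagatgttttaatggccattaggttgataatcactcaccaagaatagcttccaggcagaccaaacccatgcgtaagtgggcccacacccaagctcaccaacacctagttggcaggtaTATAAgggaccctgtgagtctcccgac
Krt23, chr11:99493121-99493370, minus strand: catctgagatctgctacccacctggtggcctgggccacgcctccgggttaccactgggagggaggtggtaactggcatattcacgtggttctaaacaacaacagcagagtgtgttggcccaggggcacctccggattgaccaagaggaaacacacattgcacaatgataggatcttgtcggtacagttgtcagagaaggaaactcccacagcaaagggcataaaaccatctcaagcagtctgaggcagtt
Krt27, chr11:99351119-99351368, minus strand: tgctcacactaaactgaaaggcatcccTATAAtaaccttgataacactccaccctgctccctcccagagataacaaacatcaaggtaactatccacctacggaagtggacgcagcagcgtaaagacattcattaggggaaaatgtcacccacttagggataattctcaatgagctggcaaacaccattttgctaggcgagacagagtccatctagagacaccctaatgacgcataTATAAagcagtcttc
Krt8, chr15:102004343-102004592, minus strand: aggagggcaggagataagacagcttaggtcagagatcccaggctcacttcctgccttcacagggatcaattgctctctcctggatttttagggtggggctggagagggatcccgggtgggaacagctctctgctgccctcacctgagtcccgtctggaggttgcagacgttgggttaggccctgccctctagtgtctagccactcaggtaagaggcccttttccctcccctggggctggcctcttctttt
Krt18, chr15:102027966-102028215, plus strand: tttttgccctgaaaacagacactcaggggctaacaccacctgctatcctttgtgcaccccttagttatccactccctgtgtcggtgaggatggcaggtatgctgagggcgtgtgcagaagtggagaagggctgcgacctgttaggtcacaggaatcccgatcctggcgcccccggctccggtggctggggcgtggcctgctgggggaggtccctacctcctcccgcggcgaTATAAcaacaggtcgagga
The motif was chosen after the window of Krt2 had been seen. In Krt2 its first base lies 27 bases before the start. Krt27 holds it 2 times, 223 and 15 bases before the start, Krt18 holds it 19 bases before, and these letters are not in the windows of Krt23 and Krt8. The RefSeq table matched 24 of the 36 keratin genes with 25 promoter windows, and Krt80 is among those it did not match. On either strand TATAA occurred in 15 of the 25 windows (60%) and in 22.8% of all 32851 windows. On the strand of the gene and within 40 bases of the start it occurred in 11 of the 25 (44%) and in 4.23% of all. A match describes the letters and does not show a working site.

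Krt2, a type II keratin of the upper living layers of the epidermis, was the keratin with the largest difference between genotypes. Its probe set 1427154_at read 1.46, 1.67, 0.96 and 1.56 on WT 1 to 4 and -0.96, -1.41, -1.18 and -1.12 on BSKO 1 to 4. All WT arrays lay above all BSKO arrays, and the gap between the lowest WT and the highest BSKO array was 1.91, larger than the SD of 0.32 in WT (n = 4) or 0.19 in BSKO (n = 4). The means of 1.41 and -1.17 differ by -2.58 (SE 0.17), or 5.97-fold lower in BSKO. In size this was rank 4 among all 22626 probe sets with 8 arrays and rank 7 without BSKO 2, where the difference was -2.50 (SE 0.16). BSKO 2 was the lowest array for Krt2, and within replicates 1 and 2 the difference was -2.74 against -2.41 within replicates 3 and 4.

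Krt80, a type II keratin of many epithelia, differed in the opposite direction. Probe set 1419619_at read -1.09, -0.99, -0.68 and -0.37 on WT 1 to 4 and 0.90, 2.09, 0.86 and 0.37 on BSKO 1 to 4. The genotypes did not overlap, with 0.73 between the nearest arrays, WT 4 and BSKO 4. The WT mean was -0.78 ± 0.33 (SD, n = 4) and the BSKO mean 1.05 ± 0.73 (SD, n = 4), which is 1.83 higher (SE 0.34), or 3.56-fold. BSKO 2 held the highest value, and without it the difference was 1.49 (SE 0.20) and the BSKO SD 0.30 (n = 3). Unlike that of Krt2, the Krt80 difference was uneven within the study: it was 2.53 within replicates 1 and 2, where BSKO 2 lies, and 1.14 within replicates 3 and 4. With BSKO 2 left out, BSKO 1 still lay 1.94 above the mean of WT 1 and 2. Within WT, replicates 3 and 4 lay 0.52 above 1 and 2. Across the 8 arrays Krt2 and Krt80 had a Pearson correlation of -0.90, a description of arrays that share the genotype split.

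**Figure D1:**
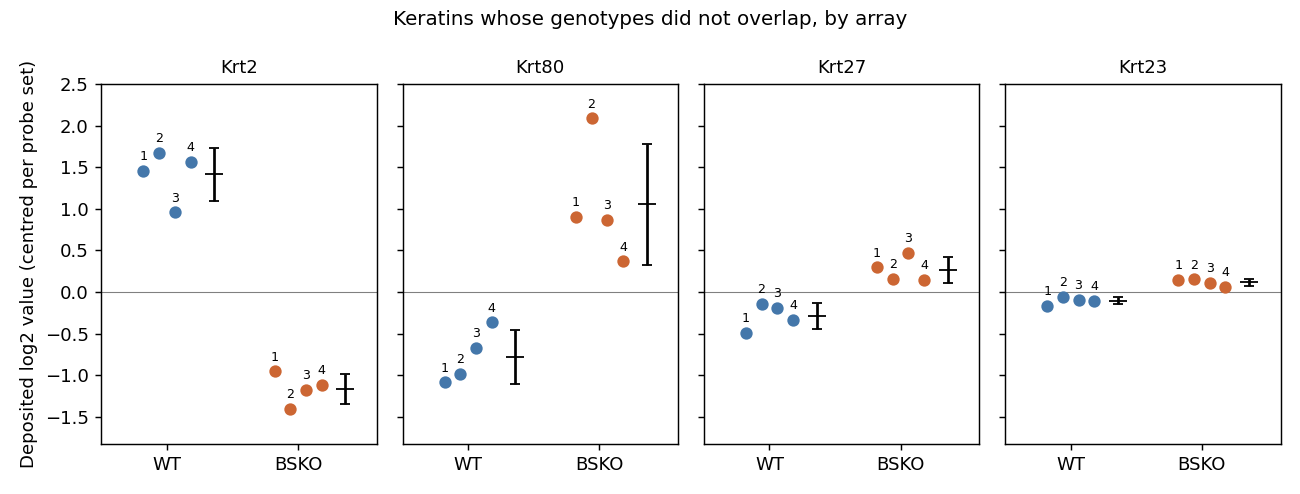
Deposited log2 value (vertical axis, centred per probe set) of Krt2, Krt80, Krt27 and Krt23 on the 4 WT and 4 BSKO arrays; numbers are replicate numbers, and the bar is the mean with its SD. The WT arrays of Krt2 lie at 0.96 or above and the BSKO arrays at -0.96 or below, while the separation of Krt23 is 0.12 between its nearest arrays.

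Apart from these, the genotypes separated completely for Krt27 and Krt23. Krt27 is a type I keratin of the inner root sheath of the hair follicle. It read -0.49, -0.14, -0.19 and -0.34 in WT and 0.29, 0.16, 0.47 and 0.14 in BSKO, so every BSKO array lay above every WT array. The difference of 0.56 (SE 0.12) missed the threshold with 8 arrays (adjusted p = 0.182). Without BSKO 2 Krt27 rose by 0.59 (SE 0.11, adjusted p = 0.0489). That call was lost when any further array, BSKO 1, 3 or 4 or WT 1, 2, 3 or 4, was left out (differences 0.51 to 0.67, adjusted p from 0.0541 to 0.128). In those fits 0.084% to 4.72% of all probe sets passed. Krt23, a type I keratin, read -0.16, -0.062, -0.093 and -0.11 in WT and 0.15, 0.15, 0.11 and 0.062 in BSKO. Its difference of 0.22 (SE 0.084) was small and did not pass (adjusted p = 0.412, and 0.129 without BSKO 2). In all, genotypes did not overlap for 4 of the 43 keratin probe sets, 3 higher and 1 lower in BSKO, a share of 9.30% where 12.3% of all probe sets did not overlap (5.67% higher and 6.66% lower). Without BSKO 2 there were 5 of 43, with Krt77 as the second on the lower side, against 19.5% of all (9.21% higher and 10.3% lower). Both shares lie near or under the background.

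The remaining 41 probe sets, of 34 genes, had differences from -0.55 to 0.77 with 8 arrays and from -0.62 to 0.59 without BSKO 2. Their median difference was 0.18 with 8 arrays and 0.031 without BSKO 2, beside 0.022 and 0.0089 over all probe sets. With 8 arrays 33 of the 41 were above 0, and 27 without BSKO 2. Over all probe sets 53.5% and 52.2% were above 0. At an unadjusted p under 0.05 there were 3 of the 41, against 10.8% of all probe sets, and 6 of the 41 without BSKO 2, against 19.8%. With 8 arrays none passed after adjustment (lowest adjusted p = 0.182 by limma). Krt2 and Krt80, which had been chosen on this same difference, lay outside the range of these 41, in opposite directions.

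**Figure D2:**
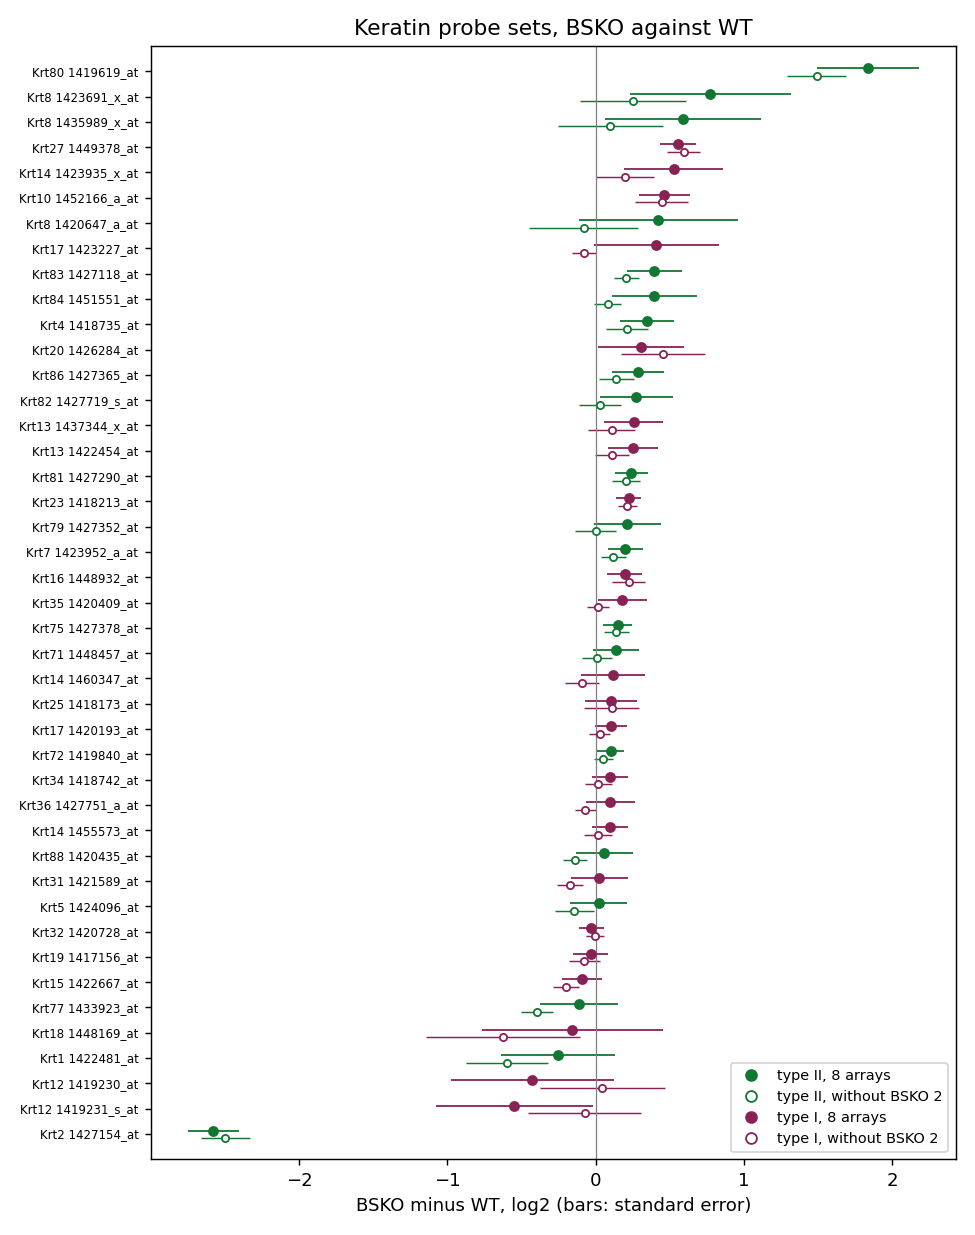
Difference BSKO minus WT on the log2 scale (horizontal axis) for each of the 43 keratin probe sets, with 8 arrays (filled) and without BSKO 2 (open); bars are standard errors from the limma fit and colour is keratin type. Krt2 at -2.58 and Krt80 at 1.83, which were chosen on this difference, lie outside the range of -0.55 to 0.77 of the other 41.

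The suprabasal keratins of the epidermis measured beside Krt2 were Krt1, Krt10 and Krt77. None of them passed with 8 arrays or without BSKO 2, and Krt10 alone among them was above 0, in both. Krt1, the type II partner gene of Krt10, read 0.0030, 0.17, -0.0030 and -0.12 in WT and 0.16, 0.78, -1.20 and -0.71 in BSKO. The BSKO arrays thus spanned both sides of WT, with BSKO 3 and 4 low and BSKO 2 high. The difference was -0.26 (SE 0.38, adjusted p = 0.764), and -0.60 without BSKO 2 (SE 0.28, adjusted p = 0.280), where it passed only when BSKO 1 was left out as well. In that last fit 4.72% of all probe sets passed. Krt10, the type I partner of Krt1 and Krt2, read -0.44, -0.52, -0.089 and 0.089 in WT and -0.092, 0.27, 0.28 and 0.43 in BSKO. Its difference of 0.46 (SE 0.17, adjusted p = 0.410) had the opposite sign to that of Krt2 and was 0.45 without BSKO 2 (adjusted p = 0.224). Krt10 also stepped by replicate number: replicates 3 and 4 lay 0.48 above 1 and 2 in WT. In BSKO they lay 0.45 above BSKO 1. The epidermal type II keratin Krt77 read -0.038, 0.038, 0.25 and 0.31 in WT and -0.23, 0.88, -0.16 and -0.39 in BSKO. Without BSKO 2, the highest array, all BSKO arrays of Krt77 lay below WT, with a difference of -0.40 (SE 0.11, adjusted p = 0.107).

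The 5 probe sets of basal layer keratins had a median difference of 0.096, with 4 above 0, and one of -0.093, with 2 above 0, without BSKO 2. None passed (0 with 8 arrays and 1 without BSKO 2 had an unadjusted p under 0.05 by limma). Krt5 read 0.33, 0.29, -0.11 and -0.11 in WT and 0.0064, 0.61, -0.13 and -0.0064 in BSKO, and it differed by 0.019 (SE 0.19, adjusted p = 0.967), or by -0.14 without BSKO 2. For its partner Krt14 the 3 probe sets differed by 0.53 (1423935_x_at, SE 0.33), 0.096 (1455573_at, SE 0.12) and 0.12 (1460347_at, SE 0.21), with adjusted p values of 0.556 to 0.804. On all 3 BSKO 2 was the highest array (1.37, 0.35 and 0.70), and without it the differences were 0.20, 0.014 and -0.093. Krt15, another basal type I keratin, differed by -0.094 (SE 0.13), and by -0.20 without BSKO 2 (SE 0.087, adjusted p = 0.247). For all 5 probe sets of this group BSKO 2 held the highest of the 8 values.

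The 7 probe sets of simple epithelial keratins had a median difference of 0.30 and 5 were above 0, with a median of 0.098 and 4 above 0 without BSKO 2. None passed with either set of arrays (0 had an unadjusted p under 0.05 by limma in both). The simple epithelial pair Krt8 and Krt18 varied more between BSKO animals than any other keratins, and the variation was shared by both genes. On the 4 WT arrays Krt18 lay between -0.026 and 0.056. On BSKO 1 to 4 it read 0.47, 1.24, -0.20 and -2.12, so BSKO 2 was highest and BSKO 4 lowest. The 3 probe sets of Krt8 followed the same order: 1420647_a_at read 0.68, 1.89, 0.091 and -1.16, 1423691_x_at 0.97, 2.27, 0.43 and -0.81, and 1435989_x_at 0.85, 1.98, 0.11 and -0.94, while WT arrays lay between -0.20 and 0.078. The SD of Krt18 was 0.037 in WT and 1.44 in BSKO (n = 4 each), and that of Krt8 was 0.064 to 0.12 in WT and 1.23 to 1.28 in BSKO. Across 8 arrays the Pearson correlation of Krt18 with the 3 Krt8 probe sets was 0.82 to 0.91. It was 0.78 to 0.94 without BSKO 2 and 0.93 to 0.97 without BSKO 4. These are descriptions over arrays, with BSKO 2 and BSKO 4 at the ends. The genotype differences were within this spread: -0.16 for Krt18 (SE 0.61, adjusted p = 0.906) and 0.42, 0.77 and 0.59 for Krt8 (SE 0.54, 0.54 and 0.52, adjusted p from 0.581 to 0.730). Without BSKO 4 the Krt18 difference turned from -0.16 to 0.50 and those of Krt8 were 0.93, 1.28 and 1.07. Without BSKO 2 they moved the other way, to -0.62 for Krt18 (SE 0.52) and -0.083, 0.25 and 0.098 for Krt8. None passed in either case.

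Choroid plexus markers moved with this pair on BSKO 4. All 10 measured marker genes of that epithelium had their lowest value on BSKO 4, between -3.29 (the bicarbonate transporter gene Slc4a5) and -0.96 (the transthyretin gene Ttr), and lay between -0.67 and 0.90 on the other 7 arrays. The median of the list was -2.04 on BSKO 4 and -0.094 to 0.31 elsewhere. On BSKO 2, where Krt8 and Krt18 were highest, the list median was 0.13, below the 0.31 of BSKO 1, so the 2 measures did not keep the same order. The range of the list median was -0.094 to 0.076 in WT and -2.04 to 0.31 in BSKO. In bulk tissue, fewer cells of a type and less RNA per cell cannot be told apart, and the part of the choroid plexus in the Krt8 and Krt18 values was not tested. The 7 pituitary markers, of another tissue that makes these keratins, had a median of 0.18 on BSKO 4 and 0.48 on BSKO 2. Choroid plexus was not the only list that was lowest on BSKO 4. The median of 3 ependymal markers was 0.82, 0.79, 0.20 and -0.26 on BSKO 1 to 4, and -0.16 to 0.054 in WT. The part of these cells was not tested either.

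**Figure D3:**
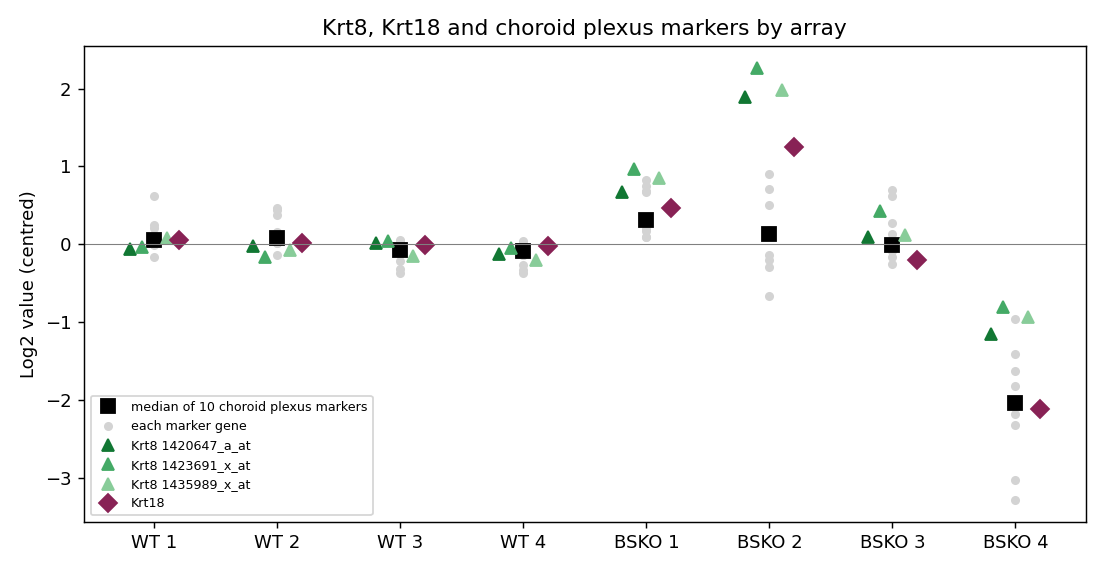
Deposited log2 value (vertical axis, centred per probe set) of Krt18 (diamonds), the 3 Krt8 probe sets (triangles), 10 choroid plexus marker genes (grey) and their median (squares) on the 8 arrays. On BSKO 4 Krt18 (-2.12), Krt8 and the marker median (-2.04) are all low, while on BSKO 2 Krt8 and Krt18 are high and the marker median is 0.13.

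The other simple keratins were read from 1 probe set each. Krt19, a type I keratin of ducts and simple epithelia, read -0.11, 0.16, 0.27 and -0.086 in WT and 0.023, 0.16, -0.023 and -0.060 in BSKO, and it differed by -0.033 (SE 0.12, adjusted p = 0.900), or by -0.077 without BSKO 2. Its BSKO arrays kept the order of Krt18, from BSKO 2 down to BSKO 4, but spanned no more than its WT arrays. Krt7, a type II keratin of glandular epithelia, differed by 0.20 (SE 0.12), or by 0.12 without BSKO 2, and also had its highest BSKO value on BSKO 2 (0.34) and its lowest on BSKO 4 (-0.017). Krt20, a type I keratin of gut epithelium, differed by 0.30 (SE 0.29), or by 0.45 without BSKO 2, and rested on BSKO 3, which read 1.22 where the other BSKO arrays read -0.15 to 0.068.

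Krt12, the type I keratin of the corneal epithelium, separated the arrays by replicate number rather than by genotype. Probe set 1419230_at read -0.36, -0.41, 0.79 and 0.67 on WT 1 to 4 and -0.59, -1.67, 0.36 and 0.89 on BSKO 1 to 4. Its other probe set, 1419231_s_at, read -0.32, -0.20, 0.86 and 0.76 in WT and -0.43, -1.69, 0.20 and 0.82 in BSKO. In both genotypes replicates 3 and 4 lay above replicates 1 and 2, by 1.12 and 1.07 within WT for the 2 probe sets and by 0.95 to 1.21 within BSKO when BSKO 2 is left out. The genotype differences of -0.43 (SE 0.55) and -0.55 (SE 0.53) were smaller than these steps and did not pass (adjusted p = 0.732 and 0.662), and without BSKO 2 they were 0.044 and -0.076. The median of 7 markers of striatal projection neurons stepped the same way, from -1.94 and -1.79 on WT 1 and 2 to 0.0057 and -0.084 on WT 3 and 4, and from 0.059 and 0.14 to 1.12 and 1.03 in BSKO. Unlike Krt12, this list was also higher in BSKO without overlap, with a median difference of 1.61, or 1.80 without BSKO 2. All 7 genes were above 0 and had an unadjusted p under 0.05 by limma (12.2% of all genes), and none passed. What part this list has in Krt12 was not tested.

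The 11 probe sets of mucosal, corneal and wound keratins, Krt80, Krt23 and Krt12 among them, had a median difference of 0.22 and 9 were above 0. Without BSKO 2 the median was 0.11 and 9 were above 0. The stress-induced type I keratins Krt16 and Krt17 differed by 0.20 (SE 0.12, and 0.22 without BSKO 2) and by 0.10 and 0.41 on the 2 probe sets of Krt17 (SE 0.11 and 0.42). The larger Krt17 value came from BSKO 2, which read 1.87 on 1423227_at while the other 7 arrays lay between -0.25 and 0.023. Without BSKO 2 it was -0.081, and that of the other probe set 0.027. The mucosal pair Krt4 and Krt13 differed by 0.35 (SE 0.18) for Krt4 and by 0.25 and 0.26 for Krt13, and by 0.21, 0.11 and 0.11 without BSKO 2. None of these passed.

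Keratins of the hair follicle and nail made up 15 probe sets, each of a different gene. They had a median difference of 0.15, and 14 of the 15 were above 0. Krt27 was the largest at 0.56, followed by the type II hair keratins Krt83 (0.40, SE 0.19) and Krt84 (0.40, SE 0.28), and Krt32 was the lowest at -0.030 (SE 0.085). Without BSKO 2 the median was 0.051 and 12 were above 0, with Krt83 at 0.21 and Krt84 at 0.080. BSKO 2 was the highest of the 8 arrays for 11 of the 15. Probe sets for the close copies Krt81, Krt83 and Krt86 may share target sequence and are not independent.

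Type II and type I keratins as groups did not separate the genotypes beyond BSKO 2. The 20 type II probe sets had a median difference of 0.23 and the 23 type I probe sets one of 0.10. Without BSKO 2 these were 0.065 and 0.018. On each array the type II median minus the type I median was 0.088, 0.027, -0.061 and -0.048 on WT 1 to 4 and 0.034, 0.41, 0.069 and -0.054 on BSKO 1 to 4. BSKO 2 lay above all the others, which overlapped. The genotype means of this quantity were 0.0016 ± 0.070 (SD, n = 4) for WT and 0.12 ± 0.20 (SD, n = 4) for BSKO, which differ by 0.11 with BSKO 2 and 0.015 without. With estimated array weights it turned to -0.025.

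Most keratins were high on BSKO 2. The median of the 43 was 0.58 on that array, where the median of all probe sets was 0.039, and it lay between -0.072 and 0.056 on the other 7 arrays. BSKO 2 was the highest of the 8 arrays for 32 of 43 keratin probe sets (74.4%), against 40.2% of all probe sets. This held for 18 of 20 type II and 14 of 23 type I probe sets. Krt2, the hair keratin gene Krt32 and both probe sets of Krt12 went the other way, with BSKO 2 as their lowest array. Over all 22626 probe sets it was the lowest array for 7918. Some other lists were high there too: the medians on BSKO 2 were 0.60 for epithelial markers, 0.48 for pituitary markers, 0.41 for cornified envelope genes and 0.40 for desmosome and plakin genes. Others were not: those on BSKO 2 were 0.20 for epidermal transcription factors, 0.14 for striatal and 0.13 for choroid plexus markers. They were 0.11 for other intermediate filament genes and -0.57 for meningeal and fibroblast genes. BSKO 2 is the array whose 5' probe sets for beta-actin and Gapdh lay -2.44 and -2.43 from the 3' ones, and what part RNA quality had in these values was not tested. Of the 43 differences, 31 were smaller in size without BSKO 2, where 64.2% of all probe sets were also smaller, and 8 changed sign.

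**Figure D4:**
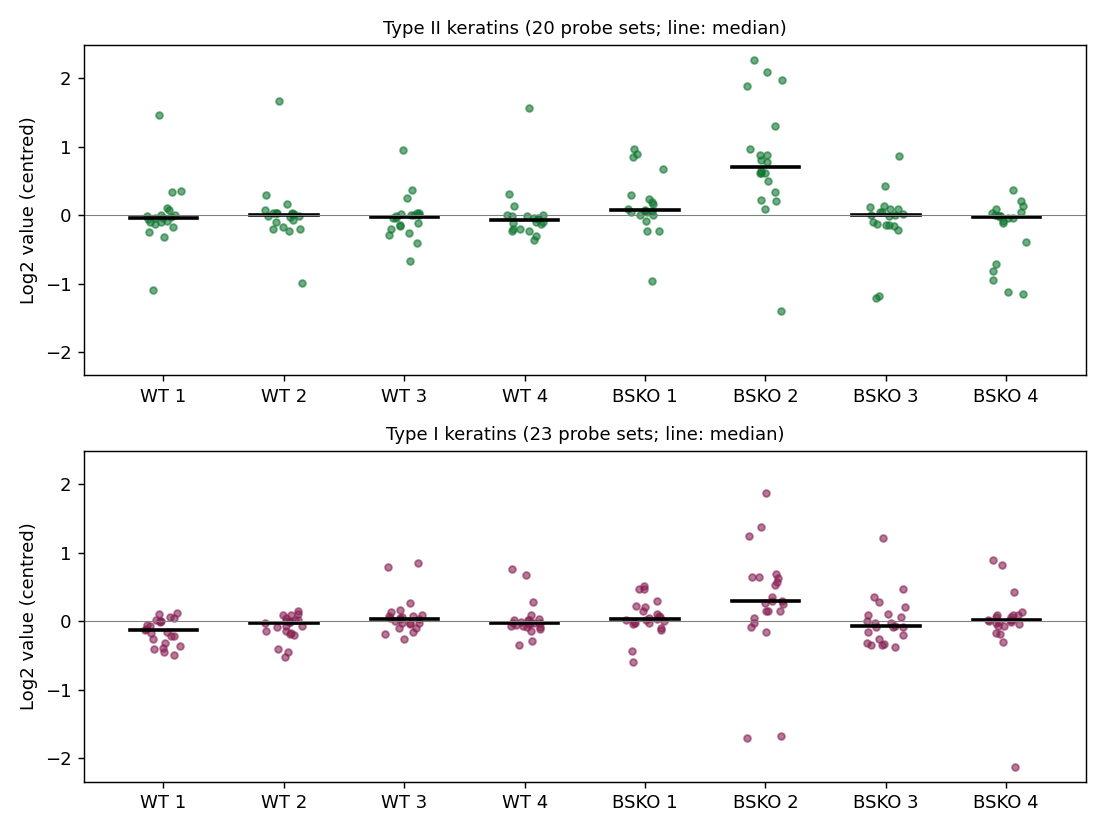
Deposited log2 values (vertical axis, centred per probe set) of the 20 type II and 23 type I keratin probe sets on each array, with the median as a line. On BSKO 2 the medians are 0.71 and 0.30, and on the other 7 arrays they lie between -0.13 and 0.069.

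Krt2 and Krt80 had been chosen on their difference, and their genomic neighbours had smaller ones, none of which passed. All type II keratin genes and the type I gene Krt18 lie in a row on chromosome 15, and the other type I genes lie on chromosome 11. In RefSeq order Krt80 opens the row of 27 keratin genes on chromosome 15, of which 19 were members measured here, and Krt2 stands at place 19. The nearest measured genes on the sides of Krt2 were Krt72, Krt71 and Krt5 (0.099, 0.14 and 0.019, as means of the probe sets of a gene) and Krt1, Krt77 and Krt4 (-0.26, -0.11 and 0.35). Without BSKO 2 those of Krt1 and Krt77, the nearest on that side, were -0.60 and -0.40, the same sign as Krt2, with no overlap between genotypes for Krt77, and those of Krt72, Krt71, Krt5 and Krt4 were 0.051, 0.0088, -0.14 and 0.21. Beside Krt80 lie the autophagy gene Atg101 (-0.0036), the immediate early gene Nr4a1 (0.33) and Grasp (-0.40) outside the cluster, and Krt7, Krt88 and Krt81 (0.20, 0.057 and 0.24) within it. Without BSKO 2 these were 0.074, 0.22 and -0.12 outside and 0.12, -0.14 and 0.20 within. None of these 12 genes passed with 8 arrays or without BSKO 2 (9 of 12393 genes, or 0.0726%, passed with 8 arrays and 266, or 2.15%, without BSKO 2).

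**Figure D5:**
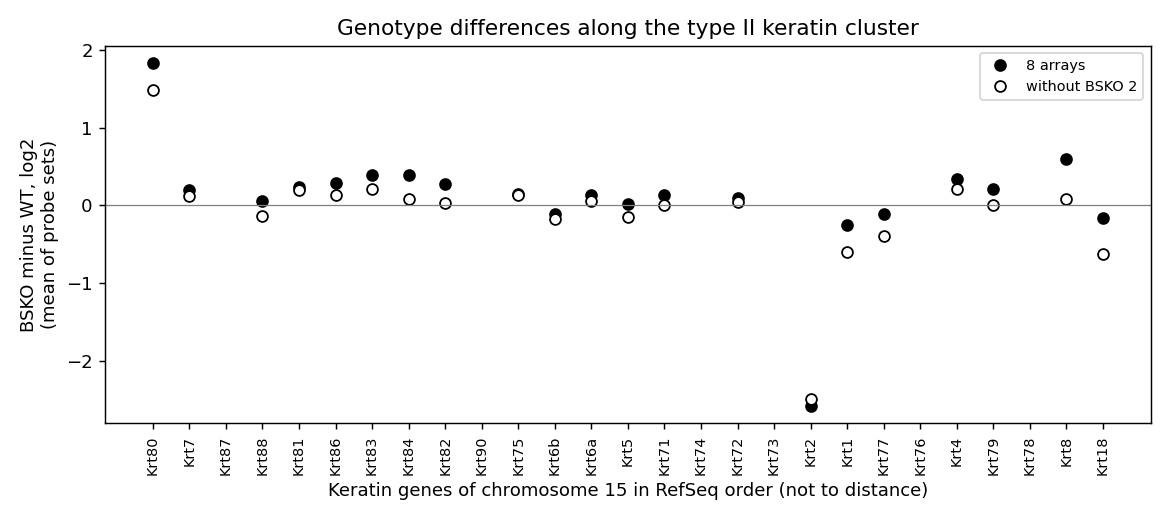
Difference BSKO minus WT (vertical axis, log2, mean of the probe sets of each gene) for the keratin genes of chromosome 15 in gene order, equally spaced, with 8 arrays (filled) and without BSKO 2 (open); genes with no point had no value here. Krt80 (1.83) and Krt2 (-2.58) were chosen on this difference. The filled points of the keratin genes nearest to them lie between -0.26 and 0.35. Without BSKO 2 Krt1 is at -0.60 and Krt77 at -0.40.

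Genes that work with keratins were read as means of the probe sets of each gene. Of all 12393 genes 0.0726% passed with 8 arrays and 2.15% without BSKO 2, and 12.2% and 21.2% had an unadjusted p under 0.05 by limma; these shares are the background for the counts of each list. Desmosomes and plakins anchor keratin filaments at cell contacts. Of 16 measured genes of this list none passed with 8 arrays (2 had an unadjusted p under 0.05 by limma), the median difference was 0.066, and 11 were above 0. Without BSKO 2, 1 passed: Dst, a plakin that links filaments to the membrane in skin and has neuronal forms, rose by 0.34 (SE 0.063, adjusted p = 0.0431). Its WT arrays read -0.068, -0.051, -0.19 and -0.16 and its BSKO arrays 0.17, 0.16, 0.23 and 0.26, without overlap. Evpl, the envoplakin gene, differed by 0.51 and the desmosomal plakophilin gene Pkp1 by 0.77, and both were smaller without BSKO 2 (0.31 and 0.41).

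Of 14 measured genes of the cornified envelope, the cross-linked shell of dead skin cells, none passed with 8 arrays (3 had an unadjusted p under 0.05 by limma). The median was 0.092 with 8 arrays, with 11 above 0. It was -0.029 when BSKO 2 was left out, with 5 above 0 and 9 below. Without BSKO 2 the small proline-rich protein gene Sprr1a rose by 0.66 (SE 0.10, adjusted p = 0.0283). It read -0.37, -0.060, -0.034 and 0.034 in WT and 0.58, -0.21, 0.59 and 0.47 in BSKO, so BSKO 2 alone among the BSKO arrays lay within the WT range.

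Of 11 transcription factor genes of the epidermis, none passed with 8 arrays (3 had an unadjusted p under 0.05 by limma). The median was 0.059 with 8 arrays, with 6 above 0, and -0.066 without BSKO 2, with 5 above 0 and 6 below. Grhl1, a grainyhead-like factor of epidermal differentiation, read 0.45, 0.45, 0.29 and 0.28 in WT and -0.28, -1.21, -0.70 and -0.70 in BSKO. Its difference was -1.09 (SE 0.18, adjusted p = 0.0773), and without BSKO 2 it fell by 0.93 (SE 0.11, adjusted p = 0.0164). Ovol2 and Tfap2a differed by 0.98 and -0.33, or by 0.64 and -0.35 without BSKO 2, and did not pass.

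Among 12 general epithelial markers 8 were above 0 with 8 arrays, with a median of 0.20, and none passed (2 had an unadjusted p under 0.05 by limma). Spint1, an inhibitor of membrane serine proteases, read -0.73, -1.01, -0.28 and -0.47 in WT and 0.38, 0.83, 0.28 and 0.47 in BSKO (difference 1.11, SE 0.18, adjusted p = 0.0773), and without BSKO 2 it rose by 1.00 (adjusted p = 0.0300). Cdh1, which encodes the epithelial cell contact protein E-cadherin, lay on the lower side, at 1.13, 1.19, 0.48 and 0.43 in WT and -2.15, -1.82, -0.43 and -0.47 in BSKO. Its difference of -2.03 (SE 0.42) missed the threshold with 8 arrays (adjusted p = 0.130) and without BSKO 2 (-1.83, adjusted p = 0.0728).

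Markers of the cell types that could bring keratin RNA into a brain sample gave no call for the epidermis. Of 10 keratinocyte markers, 4 of them keratins, none passed with either set of arrays (2 had an unadjusted p under 0.05 in each by limma), and the median on an array was -0.067 to 0.022 in WT and -0.13 to 0.58 in BSKO, highest on BSKO 2. The list median was 0.12 with 8 arrays and -0.015 without BSKO 2. Of 8 hair follicle markers, 5 of them not keratins, none passed with 8 arrays. Without BSKO 2 Krt27 alone passed, which is itself a keratin examined here, so no marker outside the keratins passed. The hair follicle list had a median difference of 0.12 with 8 arrays and 0.0028 without BSKO 2. The 10 meningeal and fibroblast genes had medians of 0.14 to 0.74 on WT arrays and -0.57 to -0.18 on BSKO arrays, so this list, like Krt2, was higher in WT without overlap. Its matrix proteoglycan genes Ogn (-1.39, adjusted p = 0.0300) and Lum (-0.85, adjusted p = 0.0455) fell without BSKO 2. With 8 arrays none of the list passed. All 10 genes were below 0 with either set of arrays, with a median difference of -0.99, or -0.77 without BSKO 2. Of them 8 and 9 had an unadjusted p under 0.05 by limma, where the shares of all genes were 12.2% and 21.2%. WT 1 and 2 stood above WT 3 and 4 for this list (0.66 and 0.74 against 0.14 and 0.15). The mean of Krt2 on WT 3 and 4 also lay lower, at -0.30 from that on WT 1 and 2. For Krt2 WT 3 was the lowest WT array, and WT 4 lay between WT 1 and WT 2. What part this list has in Krt2 was not tested. The 3 measured ependymal markers differed by 0.14 to 0.77, or by -0.034 to 0.49 without BSKO 2, and none passed.

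The other intermediate filament genes, 13 measured, had a median difference of 0.025 with 8 arrays and -0.079 without BSKO 2. None passed with 8 arrays or without BSKO 2 (5 and 6 had an unadjusted p under 0.05 by limma, where the shares of all genes were 12.2% and 21.2%). The astrocyte filament gene Gfap differed by -0.63 (SE 0.14, adjusted p = 0.160), the progenitor filament gene Nes by 0.29 and the neurofilament gene Nefl by -0.56. Without BSKO 2 these were -0.67 (adjusted p = 0.0547), 0.29 and -0.38.

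The genes with the most similar pattern over the 8 arrays were picked for Krt2 and Krt80 by Pearson correlation, 5 each with keratins left out. Those of Krt2 were Kctd4 (0.99), the caveolin gene Cav2 (0.98), the apoptosome gene Apaf1 (0.98), the endophilin gene Sh3gl2 (0.97) and the neural adhesion gene Cntn1 (0.97). Their genotype differences, from -1.13 for Kctd4 to -0.30 for Cntn1, were all smaller in size than that of Krt2, which had been chosen on its difference. Those of Krt80 were Rspo1 (0.98), an activator of Wnt signalling, Anxa10 (0.98), Tbl1x (0.98), the clock gene Cry1 (0.97) and Erc1 (0.97), with differences of 1.70 for Rspo1 and 0.34 to 0.58 for the others. All points share the split by genotype, so these correlations are descriptions over 8 arrays.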

How the data were processed

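Total RNA from 8 brains was hybridised to 8 arrays. RMA is the method that the submitters' processing notes name for the authors' values, and its version is not stated there. These deposited log2 values cover 22690 probe sets, of which 22689 have a median over the arrays within 1e-05 of 0, so they had been centred, a step no label records. No column was without a sample. The 64 control probe sets were left out. Symbols came from the platform annotation, and RefSeq (GRCm38.p6) carried the same symbol for all 36 keratin genes.

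The genotypes were compared by limma (version 3.58.1, R version 4.3.3), using lmFit and eBayes, two-sided and without covariate or filter, with adjustment over 22626 probe sets, or 12393 genes where probe sets of a gene were averaged. The scripts were tested on simulated data. The number of arrays limits the precision. Figures were drawn with matplotlib 3.10.9. Alternatives were array weights, quantile normalization, centring of arrays, a replicate block, trend and robust settings, replicates 1 and 2 against 3 and 4, a striatal covariate, each array left out, a threshold of 0.10, no cross-hybridising probe sets and 1 value per gene. Named keratins were Krt2, Krt80, any other past the threshold in either fit, and the best known of each role group, with the largest of the rest. Other keratins, Krt23 and Krt77 among them, were named after their values were seen. In other lists up to 3 genes with the smallest p were named, and any past the threshold. Members, lists and rule were chosen with earlier results of these data known.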

Additional observations from a re-analysis of the deposited data

Results flagged for a closer look

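Within the 43 keratin probe sets and the type II minus type I median, 88 groups of 4 arrays were searched for an array far from the other 3. Chance alone marks about 1 in 20 such groups, and 7 were marked. In 5 of them the distant array was BSKO 2, and it was the highest: Krt17 on 1423227_at (1.87, others up to 0.023) and on 1420193_at (0.30, others up to 0.020), Krt82 (0.97, others up to 0.047), Krt83 (0.81, others up to 0.092) and Krt36 (0.63, others up to -0.0023). BSKO 3 stood apart for Krt20, at 1.22 where the other BSKO arrays reached 0.068. WT 3 stood apart for Krt79, a type II keratin, at 0.37 where the other WT arrays reached -0.031. Krt2, Krt80, Krt8 and Krt18 were not marked in either genotype.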

How the results depend on the processing

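The difference of Krt2 stayed between -2.73 and -2.38 and that of Krt80 between 1.31 and 2.06 under all 17 alternatives run for each. With 1 array left out Krt2 ranged from -2.73 to -2.49, Krt80 from 1.49 to 2.06, the median keratin difference from 0.031 to 0.23 and the type II minus type I difference from 0.015 to 0.17. That last quantity reversed with array weights, to -0.025. The counts of keratins that follow include Krt2 and Krt80, which were chosen on the same difference, so they are no test of them. Of the 43 keratin probe sets, 1 passed with 8 arrays (Krt2), against 0.0309% of all probe sets. With array weights 5 of the 43 passed (Krt2, Krt80, Krt27, Krt10 and Krt77), against 11.6% of all probe sets, so this count lay near the background. In that fit BSKO 2 had a weight of 0.0456 and BSKO 4 one of 3.69. With quantile normalization and with trend and robust settings 3 passed (Krt2, Krt80 and Krt27), against 3% and 0.477% of all probe sets. With 1 array left out of the 8 the count was 0 to 3, with 3 without BSKO 2 (against 1.63% of all probe sets) and 0 without WT 4. Without BSKO 2 it was 3, and 1 to 3 with a further array left out, where 0.084% to 4.72% of all probe sets passed. Krt80 was lost without WT 1, WT 2, WT 3 or BSKO 3 (0.106%, 0.084%, 0.402% and 0.566% of all probe sets passed). Krt27 was lost whichever of the 7 was left out. Krt1 passed without BSKO 1, the fit in which 4.72% of all probe sets passed. Over all probe sets 7 passed, against 2617 with array weights, 678 after quantile normalization, 108 with trend and robust settings, 84 when a term set replicates 1 and 2 apart from 3 and 4, 66 at a threshold of 0.10 and 0 to 369 with 1 array left out (369 without BSKO 2, 0 without WT 4).

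With the replicate number as a block the differences of Krt2 and Krt80 were the same (-2.58 and 1.83). The keratin count, however, was 0 with 8 arrays and 0 without BSKO 2 (6 and 10 with an unadjusted p under 0.05 by limma). Of all probe sets 0 passed with 8 arrays (2121 unadjusted) and 0 without BSKO 2 (3672 unadjusted). The replicate number is the only link given between a WT and a BSKO sample. Deviations from the genotype mean correlated at 0.086, 0.056, 0.14 and 0.13 between arrays of the same number. They also correlated between different numbers, at 0.078 and 0.088 within replicates 1 and 2 and at 0.031 and 0.17 within 3 and 4. Pairs of 1 or 2 with 3 or 4 were all negative (-0.15 to -0.037). Deviations within a genotype sum to 0 over its 4 arrays, so positive values for some pairs bring negative ones for others. The negative pairs are therefore no separate evidence. The values describe a split of replicates 1 and 2 from 3 and 4 shared by both genotypes, with correlations of at most 0.17 in size. With a covariate for striatal markers (their median on each array) the keratin counts were 0 and 0 (6 and 7 unadjusted). Of all probe sets 0 passed with 8 arrays (1403 unadjusted) and 2 without BSKO 2 (2635 unadjusted). Without WT 4, and with BSKO 2 kept, 0 of all probe sets passed (1576 unadjusted). The causes were not tested.

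Single-channel arrays of 4 animals per genotype limit precision, and signal over background cannot be read from centred values, so a keratin that is not made in brain cannot be told from one that did not differ. It is not stated whether replicates came from separate litters, and p-values measure the spread between these samples.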

Other observations

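Keratin-associated protein genes, whose products cross-link keratin in the hair shaft, were measured for 26 genes. Their median difference was 0.085 with 8 arrays, with 19 above 0, and -0.025 without BSKO 2, with 10 above 0. None passed (0 with 8 arrays and 1 without BSKO 2 had an unadjusted p under 0.05 by limma). On BSKO 2 their median was 0.39, and on the other arrays it lay between -0.046 and 0.015.

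The 7 keratin probe sets outside the rule, of Krt6a, Krt6b, Krt33a and Krt33b and 1 listed under both Krt17 and Krt14, differed by -0.11 to 0.27 between genotypes with 8 arrays, or by -0.17 to 0.18 without BSKO 2, and none passed.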
